A study of Mus musculus with 8 samples.

Results

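The 8 arrays measured RNA of MPC-5 cells, a conditionally immortalised mouse podocyte line, in 4 eluates of IgG bead pulldowns and 4 input extracts. By the labels and methods, all the cells stably carried a TAP-tagged cDNA of the +KTS form of the Wilms' tumour protein WT1 behind a CMV promoter. All had been propagated at 33°C and had then differentiated at 37°C, where they stayed 14 days before the extracts were made, and cells without the construct or before the shift were not analysed here. The signal of Wt1 itself was at the level of the array medians on all 8 arrays, at 51.5 to 91.2 on one of its 2 probesets and 51.5 to 70.6 on the other, so the arrays do not show the construct's transcript. Whether either probeset lies within the tagged cDNA was not tested. Each array belonged to 1 of 2 sets. Set 2 held eluates 2 and 3 with inputs 3 and 4, and set 1 held eluates 1 and 4 with inputs 1 and 2. The sets together held all 8 arrays of the series, 4 in each set and 2 in each set and fraction. They stand in no label. The sets were chosen by the scores of the arrays on the first principal component of the same signals, with set 2 on the positive side and set 1 on the negative side, so set differences are a description and carry no test. The methods of the study speak of independent pulldowns with inputs processed in parallel, but the labels do not give which input went with which eluate, nor cultures or days, and whatever followed the sets cannot be told apart from them.

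Podocytes are the epithelial cells that wrap the capillaries of the kidney glomerulus, and MPC-5 cells grow at the lower temperature with a temperature-sensitive SV40 T antigen whose promoter is driven by interferon, which is withdrawn when they are shifted to the higher temperature to differentiate. Interferon signalling runs from receptor-bound JAK kinases through STAT proteins and IRF9 to a promoter element called the ISRE, which switches on antiviral genes. ATF4 is a transcription factor that is made when translation initiation is slowed by phosphorylation of eIF2 alpha, and it turns on amino acid synthesis and transport genes through C/EBP-ATF composite elements.

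Component 1 carried 58.2% of the variance of the 14911 probesets tested, which were those with a mean signal of at least 100 over the 8 arrays. Scores on it were 21.97 and 30.2 for the set 2 eluates and 23.8 and 36.3 for the set 2 inputs, against -25.8 and -36.9 for the set 1 eluates and -22.1 and -27.4 for the set 1 inputs. The arrays nearest to the border between the sets were thus eluate 2 at 21.97 and input 1 at -22.1. Component 2, with 22.7% of the variance, held the eluates between 12.7 and 21.2 and the inputs between -20.2 and -15.0. Log2 signals of 2 arrays of the same set and fraction correlated at 0.990 to 0.997 over the tested probesets, those of the same set and the other fraction at 0.978 to 0.988, and those of the other set and the same fraction at 0.970 to 0.974. An array was thus closer to the opposite fraction of its own set than to the same fraction of the other set. The sets were chosen on component 1 of the same signals, so this order was favoured by that choice.

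**Figure D1:**
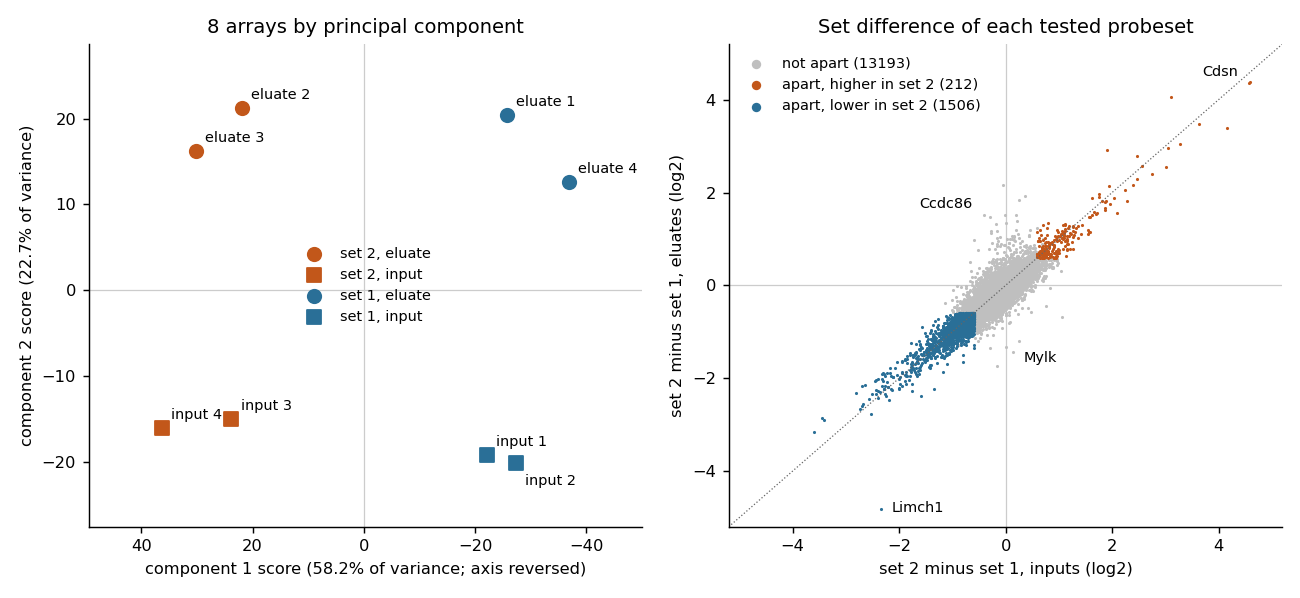
Left, scores of the 8 arrays on principal components 1 and 2, with eluates as circles and inputs as squares (the axis of component 1 runs from high to low, so that set 2 stands left). Right, log2 difference of set 2 minus set 1 in eluates against that in inputs for 14911 probesets, with the dotted line at equal differences; the 212 probesets apart and higher in set 2 and the 1506 apart and lower lie along that line, and Limch1, Mylk and Ccdc86 lie off it.

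Array medians over all 46643 probesets were 72.0 and 71.0 in set 2 eluates and 76.4 and 64.9 in set 2 inputs, against 74.5 and 84.6 in set 1 eluates and 84.3 and 80.3 in set 1 inputs. Over the tested probesets the median log2 difference of set 2 minus set 1 was -0.20 in eluates and -0.17 in inputs. A value near -0.2 is therefore the difference of a typical probeset, and the counts below are given both as deposited and with each array centred on its median. In 5% of probesets the difference was below -0.90 in eluates and below -0.86 in inputs, and in another 5% it was above 0.39 in each fraction taken alone. Eluates and inputs are separate arrays of the same sets. Their differences had the same sign for 83.7% of probesets and correlated at 0.878 across probesets, which are not independent replicates. The sets were chosen on the arrays of both fractions together, so this agreement was favoured by that choice and is no replication.

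A probeset is called apart where both set 2 arrays lay on the same side of both set 1 arrays in each fraction, in the same direction, with a difference of at least 1.5-fold in each. There were 1718 such probesets (11.5%), of which 212 were higher in set 2 (1.42%) and 1506 were lower (10.1%). With the arrays centred, 502 were higher (3.37%) and 716 lower (4.80%), so that the share higher in set 2 was 41.2% of those apart, against 12.3% as deposited. At least 2-fold, 74 were higher and 411 lower, and at least 4-fold, 14 were higher and 36 lower. With the brightest probeset for each of 9133 genes, 128 genes were higher in set 2 (1.40%) and 1048 were lower (11.5%), and with the arrays centred 309 (3.38%) and 524 (5.74%). Among the genes that were apart, 330 had at least 2 tested probesets. In 177 of these 330 another probeset was also apart in the same direction. In 314 every other probeset had the same sign in both fractions, and in 4 another probeset had the opposite sign in both. A shared sign is a weak bar, since 6100 of all 9133 tested genes were negative in both fractions. These counts describe the signals that chose the sets.

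Cdsn, which encodes the adhesion protein corneodesmosin, had the largest increase in set 2. Its signals were 2473 and 2301 in set 2 eluates and 3125 and 2612 in set 2 inputs, against 136 and 99.8 in set 1 eluates and 90.5 and 158 in set 1 inputs, that is 20.5-fold in eluates and 23.9-fold in inputs. The 4 set 1 values lay not far above the array medians. Cox6a2, the cytochrome c oxidase subunit isoform of heart and skeletal muscle, had signals of 5544 and 6014 in set 2 eluates and 9314 and 8658 in set 2 inputs, against 582 and 461 in set 1 eluates and 618 and 853 in set 1 inputs, a log2 difference of 3.48 in eluates and 3.63 in inputs. Taf7l encodes a TFIID subunit known from male germ cells. It had signals of 865 and 989 in set 2 eluates and 1836 and 1595 in set 2 inputs, against 82.6 and 94.9 in set 1 eluates and 89.2 and 102 in set 1 inputs, and its set 1 signals too lay close to the array medians. Chchd10, a protein of the mitochondrial intermembrane space, read 4934 and 4573 in set 2 eluates and 5602 and 5762 in set 2 inputs, against 848 and 394 in set 1 eluates and 401 and 867 in set 1 inputs. The set 2 values of Chchd10 lay close together, whereas in set 1 eluate 1 and input 2 were more than 2-fold above eluate 4 and input 1. Angptl6, a secreted angiopoietin-like protein, read 4347 and 4207 in set 2 eluates and 4875 and 4598 in set 2 inputs, against 600.1 and 508 in set 1 eluates and 463 and 704 in set 1 inputs.

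The other leading increases were smaller. The ATP-gated channel gene P2rx3 ranged from 354 to 522 on the set 2 arrays, against 72.2 to 93.7 on the set 1 arrays, and the sarco/endoplasmic reticulum calcium pump gene Atp2a3 from 639 to 738 on the set 2 arrays, against 138 to 170.5 on the set 1 arrays. These genes are best known from sensory neurons and blood cells. Kdm7a, a histone demethylase, ranged from 1218 to 1748 on the set 2 arrays, against 327 to 522 on the set 1 arrays, and Tenm4, a teneurin of the cell surface, from 802 to 1066 on the set 2 arrays, against 192 to 273 on the set 1 arrays. The other tested probeset of Kdm7a was not apart, with log2 differences of 0.22 in eluates and 0.17 in inputs. For Tenm4, another probeset was apart and higher, at 2.57 and 2.55, and a further probeset was not apart, at 0.11 and -0.01. Avil encodes the gelsolin family member advillin and is described with the interaction below. On the brightest probeset of each of these 10 genes the sets did not overlap in either fraction. Each of the 10 was also apart on it with the arrays centred.

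Among the decreases, Ms4a2, the beta chain of the high-affinity IgE receptor, had signals of 109.9 and 128 in set 2 eluates and 139 and 117 in set 2 inputs, against 698 and 1125 in set 1 eluates and 1347 and 1362 in set 1 inputs. The log2 difference was -2.90 in eluates and -3.41 in inputs. The imprinted growth factor gene Igf2 read 116 and 94.1 in set 2 eluates and 119.5 and 95.6 in set 2 inputs, against 478 and 1203 in set 1 eluates and 1787 and 758 in set 1 inputs. Peg3, a paternally expressed zinc finger gene, read 79.7 and 76.1 in set 2 eluates and 77.5 and 64.4 in set 2 inputs, against 356 and 621 in set 1 eluates and 721 and 289.5 in set 1 inputs. Igfbp2, which binds insulin-like growth factors, read 71.7 and 65.7 in set 2 eluates and 73.5 and 61.0 in set 2 inputs, against 255 and 633 in set 1 eluates and 622 and 295 in set 1 inputs. In these 3 genes the set 2 arrays were uniform and near the array medians, whereas in set 1 eluate 4 and input 1 were higher than eluate 1 and input 2. Dcn, the matrix proteoglycan decorin, read 123 and 128 in set 2 eluates and 127 and 108 in set 2 inputs, against 1164 and 624 in set 1 eluates and 467 and 985 in set 1 inputs, and there eluate 1 and input 2 were the higher pair.

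Uchl1, a ubiquitin hydrolase of neurons, ranged from 95.4 to 109 on the set 2 arrays, against 435 to 682 on the set 1 arrays. Ntm, a cell adhesion molecule of neurons, ranged from 60.5 to 73.8 on the set 2 arrays, against 287 to 377 on the set 1 arrays, and Ms4a6d, a membrane protein known from macrophages, from 66.3 to 90.1 on the set 2 arrays, against 287 to 592 on the set 1 arrays. Rsad2 and Limch1 complete these 10 genes and are described below. All 10 were also apart with the arrays centred, and the set 2 signals of Ms4a2, Igf2, Peg3, Igfbp2, Uchl1, Ntm and Ms4a6d, between 60.5 and 139, were not far from the array medians of 64.9 to 84.6, so that their fold changes are limited by the background.

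**Figure D2:**
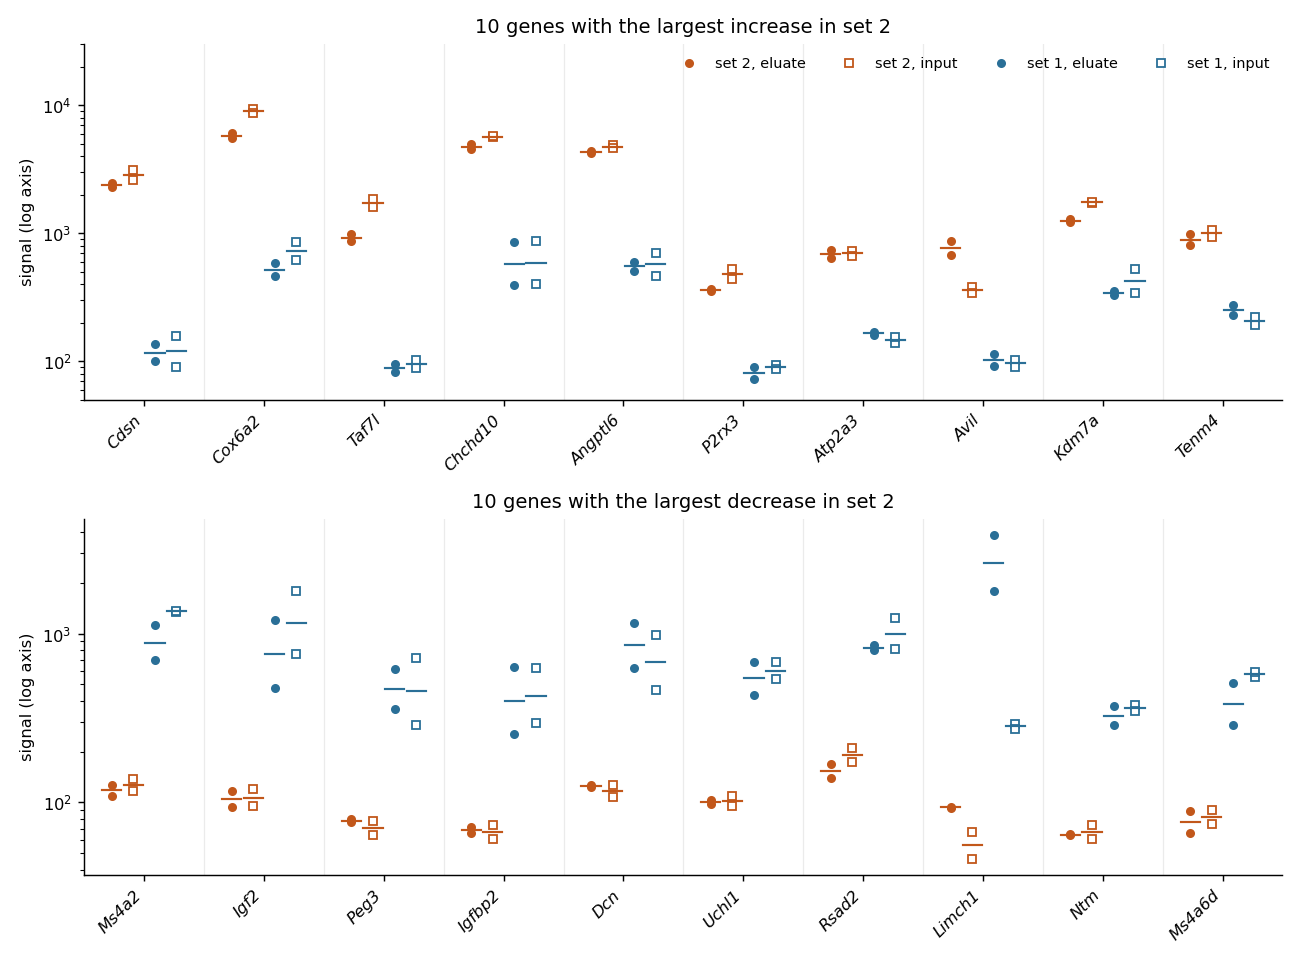
Signal (log axis) of each array for the 10 genes with the largest increase (top) and the 10 with the largest decrease (bottom) in set 2; filled circles are eluates, open squares are inputs, and bars are geometric means of 2 arrays. In every gene the 4 set 2 arrays lie apart from the 4 set 1 arrays of the same fraction, and for Igf2, Peg3, Igfbp2 and Dcn the set 1 arrays spread over more than 2-fold.

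Of the 36 gene lists, the lowest medians over the tested members were those of other kidney epithelial genes at -1.10 in eluates and -0.98 in inputs, interferon response genes at -1.04 and -1.01, fibrillar collagens and matrix genes at -0.94 and -0.96, and SRF and YAP target genes at -0.97 and -0.86. It was highest for ATF4 and amino acid response genes at 0.52 and 0.72. Over all 9133 tested genes the median was -0.23 in eluates and -0.17 in inputs, with 1.40% of genes apart and higher and 11.5% apart and lower. Each list is set beside these values.

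**Figure D3:**
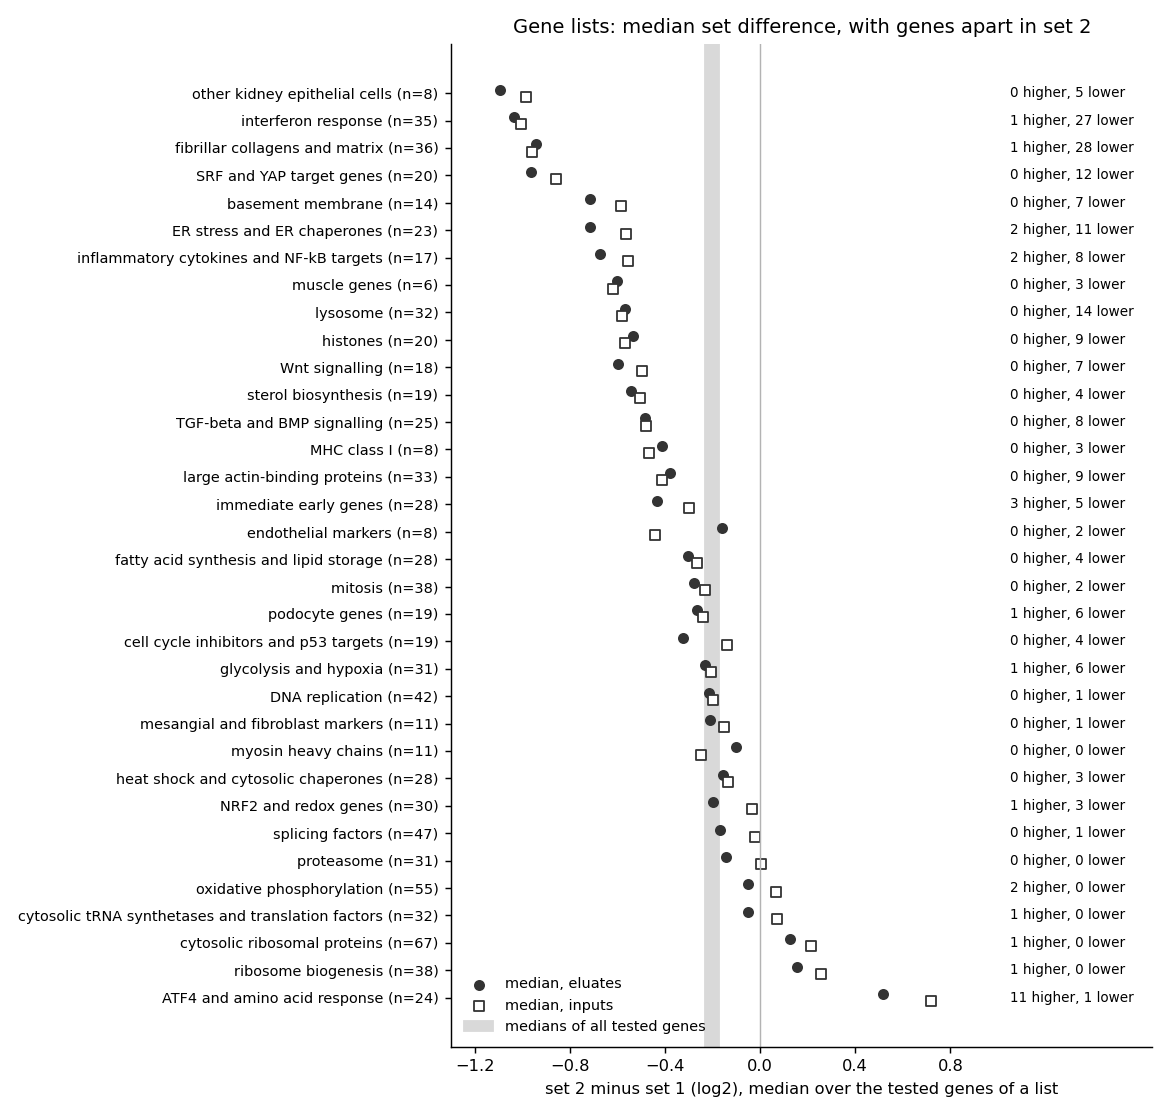
Median log2 difference of set 2 minus set 1 over the tested genes of each list with at least 5 such genes, with circles for eluates and open squares for inputs; the grey band spans the medians of all tested genes, and the text at the right counts the genes apart. ATF4 and amino acid response genes lie at 0.52 and 0.72, and interferon response genes at -1.04 and -1.01.

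Of 35 tested interferon response genes, 27 were apart and lower in set 2, and 1, Cd74, was apart and higher. With the arrays centred the counts were 22 lower and 1 higher. The genes lower in set 2 included the factors Stat2, Irf1, Irf7 and Irf9, the sensor Ddx58 (RIG-I), the kinase Eif2ak2 (PKR), the antiviral effectors Rsad2, Mx2, Oasl1, Oasl2, Oas2, Ifit2, Ifit3 and Bst2, the GTPases Irgm1, Irgm2, Igtp and Tgtp1, and the modifier Isg15 with its protease Usp18. The 7 members that were not apart, Gbp7, Psmb8, Psmb9, Tap2, Xaf1, Trim25 and Sp100, also had negative differences, between -0.66 and -0.14.

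Rsad2, or viperin, which blocks viral replication, had signals of 169.7 and 140.1 in set 2 eluates and 210.1 and 173 in set 2 inputs, against 852 and 799.7 in set 1 eluates and 814 and 1234 in set 1 inputs, which is the largest difference of the list. Usp18, the protease that removes ISG15 from proteins and dampens receptor signalling, read 371 and 325 in set 2 eluates and 368 and 319.6 in set 2 inputs, against 1678 and 1827 in set 1 eluates and 1594 and 1683 in set 1 inputs. Set 1 signals of Usp18 were between 1594 and 1827, and set 2 signals between 319.6 and 371. Irgm1, an immunity-related GTPase, ranged from 1011 to 1246 on the set 2 arrays, against 2770.4 to 3216 on the set 1 arrays. Isg15, the ubiquitin-like modifier, ranged from 1555 to 2403 on the set 2 arrays, against 3482 to 5414 on the set 1 arrays.

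Signalling components of the list were lower as well. The STAT partner of interferon receptors, Stat2, read 164 and 161 in set 2 eluates and 152 and 102 in set 2 inputs, against 338 and 341 in set 1 eluates and 217 and 266 in set 1 inputs, and Irf9, the DNA-binding part of the same complex, ranged from 448 to 552 on the set 2 arrays, against 838 to 983 on the set 1 arrays. Irf7, which amplifies type I interferon production, ranged from 188 to 212 on the set 2 arrays, against 413 to 493 on the set 1 arrays. The log2 difference of Ddx58 was -1.13 in eluates and -1.12 in inputs, and that of Eif2ak2 was -1.46 in eluates and -1.06 in inputs. Cd74, the invariant chain of MHC class II, went the other way, with signals of 399 and 350.1 in set 2 eluates and 450.0 and 425 in set 2 inputs, against 109 and 112 in set 1 eluates and 109 and 115 in set 1 inputs.

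The letters of an interferon-stimulated response element were looked for in the promoters of these genes. The windows below are from the RefSeq promoter table of build GRCm38.p6, which runs from 250 bases before to 50 bases after each gene start, and capitals mark matches to GAAANNGAAA on either strand. Irgm1 and Isg15 are shown because their matches overlap in 1 run, and Rsad2 and Stat2 because they stand for an effector and a signalling gene of the list.
Rsad2: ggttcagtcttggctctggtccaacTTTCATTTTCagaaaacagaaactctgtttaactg
Isg15: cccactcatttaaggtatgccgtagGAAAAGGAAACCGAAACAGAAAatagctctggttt
Irgm1: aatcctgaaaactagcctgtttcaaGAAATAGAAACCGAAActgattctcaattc
Stat2: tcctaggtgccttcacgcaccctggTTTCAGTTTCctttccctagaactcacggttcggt
The windows lie at chr12:26456538-26456597 (minus strand) for Rsad2, chr4:156200862-156200921 (minus strand) for Isg15, chr11:48871421-48871475 (minus strand) for Irgm1 and chr10:128270251-128270310 (plus strand) for Stat2. The match nearest to the 5′ end stood 110 bases before the gene start in Rsad2, 68 bases in Isg15, 20 bases in Irgm1 and 212 bases in Stat2. Such a match was found in 12 of the 23 interferon response genes lower in set 2 that had a promoter in the table (52.2%), against 3.99% of all 27025 genes in the table and 3.59% of the tested genes with a promoter. Over all the tested genes of the list it was found in 13 of 29 (44.8%), so the share goes with the list and says nothing on the set difference. Among all genes lower in set 2 that had a promoter in the table it was found in 48 of 812 (5.91%). Among those higher in set 2 it was found in 7 of 94 (7.45%). A match is a description of letters and not of binding.

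Inflammatory genes were split. Of 17 tested cytokine and NF-kB target genes, 8 were apart and lower and 2 were apart and higher, with 7 and 2 when the arrays were centred. The monocyte chemokine gene Ccl7 ranged from 210.1 to 252 on the set 2 arrays, against 752 to 1399 on the set 1 arrays, its neighbour Ccl2 from 77.7 to 87.8 on the set 2 arrays, against 254 to 378 on the set 1 arrays, and the T cell chemokine gene Ccl5 from 94.1 to 113 on the set 2 arrays, against 219 to 335 on the set 1 arrays. The members higher in set 2 encode acute-phase proteins. Saa3, a serum amyloid A, ranged from 218 to 278 on the set 2 arrays, against 109 to 128 on the set 1 arrays, and Lcn2, a lipocalin, from 193 to 283 on the set 2 arrays, against 104 to 120.2 on the set 1 arrays. MHC class I genes were lower by little: 3 of 8 (H2-M3, H2-T22 and H2-Q6) were apart as deposited and none with the arrays centred, and the log2 difference of B2m, the common light chain, was -0.32 in eluates and -0.05 in inputs.

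ATF4 and amino acid response genes were the list with most members higher in set 2. Of 24 tested, 11 were apart and higher and 1, Stc2, was apart and lower. With the arrays centred, 14 were higher and 1 lower. The factors among them were Atf4 itself, Atf5, Ddit3 (CHOP) and Nupr1. Trib3 encodes a pseudokinase that feeds back on ATF4. The enzymes were Asns (asparagine synthetase), Phgdh (the first step of serine synthesis), Gpt2 (mitochondrial alanine transaminase) and Chac1 (a glutathione-degrading cyclotransferase), and the transporters were Slc7a11 (cystine) and Slc6a9 (glycine).

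Trib3 had the largest difference of the list, with signals of 1433 and 1104 in set 2 eluates and 1524 and 1226 in set 2 inputs, against 498 and 336 in set 1 eluates and 308 and 458 in set 1 inputs. Gpt2 read 2362 and 2014 in set 2 eluates and 2538 and 2108 in set 2 inputs, against 786 and 679.9 in set 1 eluates and 651 and 828 in set 1 inputs, and Slc7a11 read 571 and 520.5 in set 2 eluates and 669.8 and 646 in set 2 inputs, against 191 and 186 in set 1 eluates and 168 and 242 in set 1 inputs. For these genes every set 2 value was over 2-fold above every set 1 value of the same fraction. Chac1 was among the brightest, at 12081 and 9910.2 in set 2 eluates and 11524 and 10261 in set 2 inputs, against 6165 and 4317 in set 1 eluates and 3381 and 5859.7 in set 1 inputs. The transcription factor gene Atf4 read 2258 and 2138 in set 2 eluates and 2642 and 2451 in set 2 inputs, against 1355 and 1542 in set 1 eluates and 1403 and 1880.2 in set 1 inputs, a log2 difference of 0.60 in eluates and 0.65 in inputs, and its target Asns read 5921 and 5384 in set 2 eluates and 5198 and 5142 in set 2 inputs, against 3568 and 3016 in set 1 eluates and 2755 and 3709.5 in set 1 inputs. These values are those of the brightest probeset of each gene. The other tested probeset of Atf4 was not apart, with log2 differences of 0.34 in eluates and 0.04 in inputs. Nor was that of Asns, at 0.75 and 0.47, or that of Slc7a11, at 0.47 and 0.75. Stc2, a secreted glycoprotein that ATF4 is known to induce, had the opposite sign, with a range from 401 to 525 on the set 2 arrays, against 977 to 1052 on the set 1 arrays.

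The smaller of these differences depended on single arrays. Atf4 was no longer apart by at least 1.5-fold without eluate 1, eluate 2 or input 1, Asns without input 1, Ddit3 and Nupr1 without eluate 4 or input 1, and Phgdh without eluate 2 or eluate 4. Trib3, Gpt2, Slc7a11, Chac1 and Atf5 stayed apart without any 1 array. 10 members were positive in both fractions without being apart, among them Mthfd2 at 0.57 in eluates and 0.96 in inputs, Shmt2 at 0.47 and 0.76, and Sesn2 at 0.10 and 0.06.

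The C/EBP-ATF composite element was looked for in the same promoter table. Capitals mark matches to TGATGNAA on either strand, and the windows show a cystine transporter with a pair of matches, the asparagine synthetase promoter, and 1 enzyme and 1 stress factor of the list.
Slc7a11: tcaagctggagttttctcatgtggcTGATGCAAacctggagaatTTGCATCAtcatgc
Asns: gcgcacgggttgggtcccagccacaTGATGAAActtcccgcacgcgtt
Chac1: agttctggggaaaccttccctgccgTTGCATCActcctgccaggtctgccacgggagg
Nupr1: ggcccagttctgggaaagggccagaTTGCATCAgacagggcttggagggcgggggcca
They lie at chr3:50443647-50443704 (minus strand) for Slc7a11, chr6:7693210-7693257 (minus strand) for Asns, chr2:119351024-119351081 (plus strand) for Chac1 and chr7:126625548-126625605 (minus strand) for Nupr1 in GRCm38.p6. A match was found in 5 of the 11 list members higher in set 2 (45.5%), against 4.51% of all genes in the table and 2.49% of the tested genes with a promoter. Over all the tested members of the list it was found in 7 of 23 (30.4%). Among all genes higher in set 2 that had a promoter in the table it was found in 14 of 94 (14.9%), and among those lower in set 2 in 20 of 812 (2.46%). The letters of both motifs were found in the same promoter for 76 genes, and the matches overlapped in 8 of these. No match in this window says nothing of the factor.

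Chaperones of the endoplasmic reticulum did not go with the ATF4 genes. Of 23 tested ER stress and ER chaperone genes, 11 were apart and lower in set 2 and 2 were apart and higher, which were Ddit3 and Ppp1r15a. With the arrays centred, 5 were lower and 2 higher. The disulphide isomerase gene Pdia4 read 1156 and 857 in set 2 eluates and 1295 and 897 in set 2 inputs, against 2422 and 2911 in set 1 eluates and 2537 and 2631 in set 1 inputs, and Selenos, a selenoprotein of ER-associated degradation, ranged from 1675 to 1898 on the set 2 arrays, against 3312 to 4294 on the set 1 arrays. Ppp1r15a, also called GADD34, which recruits the phosphatase of eIF2 alpha, read 3825 and 3408 in set 2 eluates and 4606 and 4312 in set 2 inputs, against 2098 and 1439.6 in set 1 eluates and 1332 and 2829 in set 1 inputs. The chaperone gene Hspa5 (BiP) was not apart, with log2 differences of -0.38 in eluates and -0.50 in inputs.

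**Figure D4:**
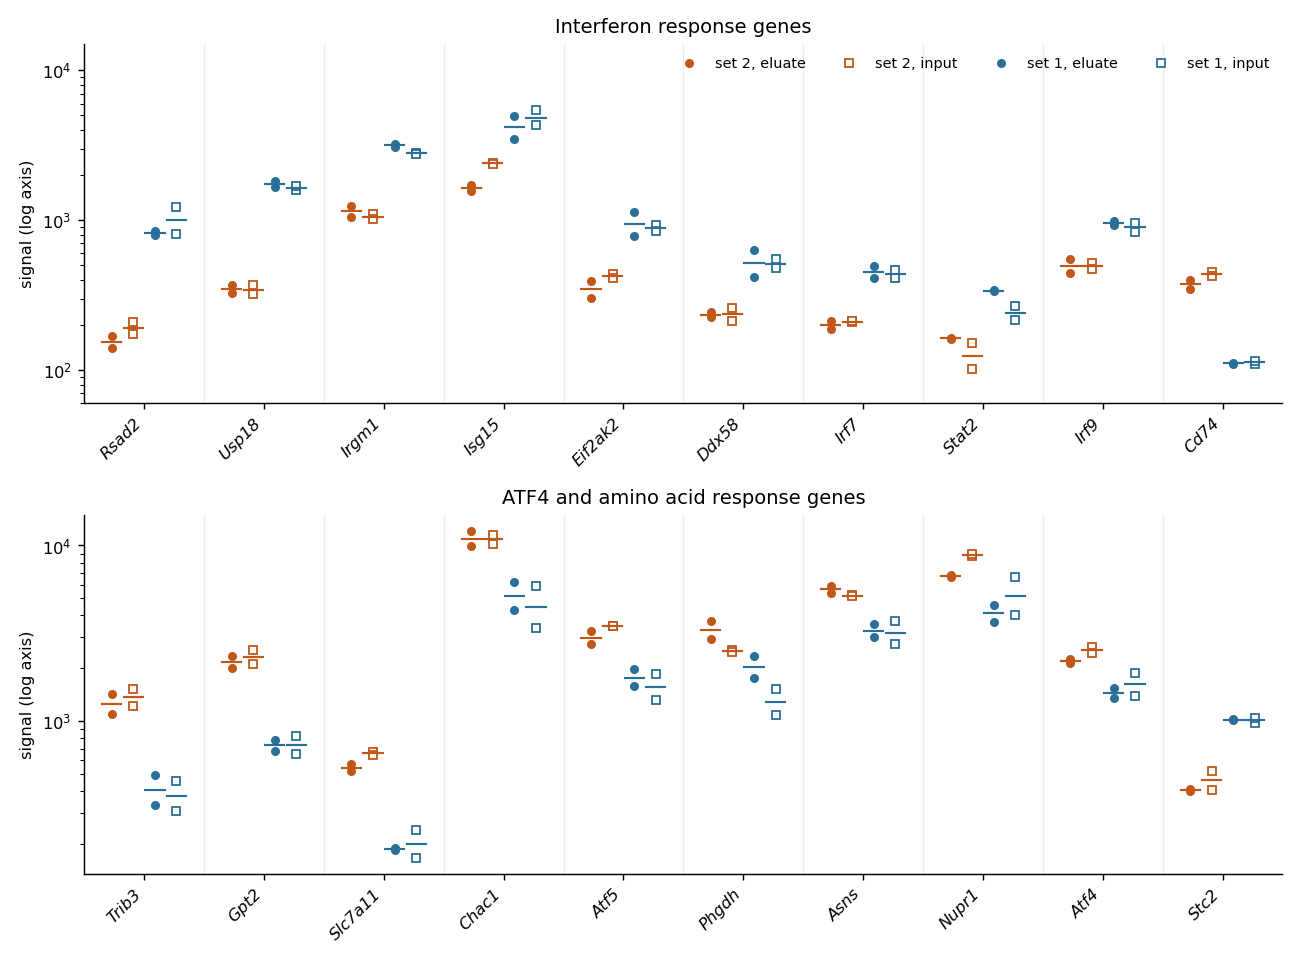
Signal (log axis) of each array for 10 interferon response genes (top) and 10 ATF4 and amino acid response genes (bottom), with filled circles for eluates, open squares for inputs and bars for the geometric mean of 2 arrays. Cd74 and Stc2 go against the other genes of their lists, and the set 1 signals of Usp18, between 1594 and 1827, lie above the set 2 signals.

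Matrix genes were lower in set 2 across the list. Of 36 tested fibrillar collagen and matrix genes, 28 were apart and lower and 1, Mgp, was apart and higher, and with the arrays centred 22 were lower and 1 higher. Col8a1, a short-chain collagen, read 518 and 420.2 in set 2 eluates and 419.9 and 419 in set 2 inputs, against 2511 and 1849.9 in set 1 eluates and 1485 and 1897 in set 1 inputs, and Tnc, the adhesion-modulating glycoprotein tenascin C, ranged from 227 to 359.8 on the set 2 arrays, against 925 to 1583 on the set 1 arrays. Col1a1, the main chain of type I collagen, ranged from 416 to 652 on the set 2 arrays, against 849 to 1886 on the set 1 arrays, and Fn1, fibronectin, from 1153 to 2524 on the set 2 arrays, against 2278 to 4264 on the set 1 arrays. Fn1 was not apart once the arrays were centred. Mgp, a calcification inhibitor, ranged from 172 to 216 on the set 2 arrays, against 99.9 to 124 on the set 1 arrays.

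Of 14 tested basement membrane genes, 7 were apart and lower and none was apart and higher, and 5 were lower with the arrays centred. The type IV collagen genes Col4a1 and Col4a2, which lie head to head and share a promoter, had similar differences. Col4a1 read 1736 and 1555 in set 2 eluates and 1517 and 1428 in set 2 inputs, against 6515 and 8311 in set 1 eluates and 6858 and 7367 in set 1 inputs, and the log2 difference of Col4a2 was -1.95 in eluates and -2.15 in inputs. Nidogen 2, which links laminin to collagen IV and is encoded by Nid2, ranged from 141 to 169 on the set 2 arrays, against 382 to 815 on the set 1 arrays. Of 25 tested TGF-beta and BMP signalling genes, 8 were apart and lower, with 6 when centred: the ligand gene Tgfb2 at -1.97 and -2.12, the receptor genes Tgfbr1 and Tgfbr2, the inhibitory Smad6, the target genes Tgfbi at -2.13 and -1.86 and Id3, the follistatin-like Fstl1 at -1.36 and -1.61, and the processing protease Bmp1, where each pair gives the log2 difference in eluates and inputs. Of 18 tested Wnt genes, 7 were apart and lower, with 2 when centred, led by the secreted Dkk3, which ranged from 432 to 508 on the set 2 arrays, against 1526 to 2594 on the set 1 arrays.

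Targets of SRF and YAP, the factors that follow actin tension, were lower as well. Of 20 tested, 12 were apart and lower and none was apart and higher, and 10 were lower with the arrays centred. The smooth muscle actin gene Acta2 read 3161 and 2820.2 in set 2 eluates and 2802 and 2661 in set 2 inputs, against 10327 and 15566 in set 1 eluates and 14992 and 11019 in set 1 inputs, and transgelin, Tagln, ranged from 84.5 to 101 on the set 2 arrays, against 247 to 423 on the set 1 arrays. Nuak2, an AMPK-related kinase gene, ranged from 1641 to 2492 on the set 2 arrays, against 4346 to 6358 on the set 1 arrays. Ccn2, Ankrd1, Thbs1, Vcl and Tpm1 were among the others. Beta-actin, Actb, read 22752 and 18673 in set 2 eluates and 22538 and 20532 in set 2 inputs, against 32589 and 32337 in set 1 eluates and 33232 and 30863 in set 1 inputs on its brightest probeset, which was not apart, whereas 3 of its 4 other tested probesets were apart and lower. Gapdh, a glycolytic enzyme often used as a reference, was not apart, with signals of 37146 and 32443 in set 2 eluates and 35546 and 29324 in set 2 inputs, against 37761 and 38400.0 in set 1 eluates and 33909 and 35990.0 in set 1 inputs. Of 28 immediate early genes, 5 were apart and lower, among them Gadd45g, Dusp1 and Klf2, and 3 were apart and higher, Gadd45a, Ier2 and Myc. With the arrays centred the split turned to 3 lower and 5 higher.

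The labelled cell type was set against its markers. Wt1 did not pass the signal filter, nor did Nphs1 (nephrin), with 74.4 to 114 over the 8 arrays, and Cd2ap did not pass either at 68.0 to 91.6. Podxl (podocalyxin) ranged from 678 to 788 on the set 2 arrays, against 590.3 to 914 on the set 1 arrays and was not apart. Synpo, the actin-associated synaptopodin, read 8037 and 6712 in set 2 eluates and 4352 and 3605 in set 2 inputs, against 16891 and 16758 in set 1 eluates and 9776 and 10630.0 in set 1 inputs, a log2 difference of -1.20 in eluates and -1.36 in inputs. Of 19 tested podocyte genes, 6 were apart and lower (Pdpn, Synpo, Cdkn1c, Efnb1, Itga3 and Itgb1) and 1, Vegfa, was apart and higher, which gives a list median of -0.27 in eluates and -0.24 in inputs, close to that of all genes. The angiogenic growth factor gene Vegfa read 1693 and 1579 in set 2 eluates and 1539.5 and 1470.0 in set 2 inputs, against 764 and 797 in set 1 eluates and 569.7 and 1014 in set 1 inputs, and was not apart without input 1.

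Of 8 tested genes known from other kidney epithelia, 5 were apart and lower. Aqp1, the water channel of the proximal tubule and thin limb, read 2412 and 2081 in set 2 eluates and 2269 and 2227 in set 2 inputs, against 11450.0 and 10046 in set 1 eluates and 11829 and 12405 in set 1 inputs. Cdh16, the kidney-specific cadherin, read 336 and 338 in set 2 eluates and 306 and 263 in set 2 inputs, against 2021 and 1526 in set 1 eluates and 1095 and 1662 in set 1 inputs, and the endocytic receptor gene Lrp2, or megalin, ranged from 356 to 390.1 on the set 2 arrays, against 1055 to 1586 on the set 1 arrays. Sox9 and Vcam1 were the others. Over the 6 markers with a probeset, the summed signal was 2733 to 3104 in set 2 eluates and 2846 to 2969 in set 2 inputs, against 11977 to 12843 in set 1 eluates and 13244 to 13949 in set 1 inputs. Most of that sum was Aqp1, and Cdh1, Umod, Aqp2 and Slc12a1, which define other nephron segments, stayed between 50.6 and 100 on every array. The 6 mesangial and fibroblast markers summed to 3389 to 3875 in set 2 eluates and 3219 to 3428 in set 2 inputs, against 11049 to 16293 in set 1 eluates and 11716 to 15648 in set 1 inputs, mainly through Acta2. Among the others, Pdgfrb ranged from 144 to 181 on the set 2 arrays, against 163 to 235 on the set 1 arrays, and Gata3 from 168 to 238 on the set 2 arrays, against 202 to 235.5 on the set 1 arrays, while Pdgfra, Des and Itga8 stayed at 56.3 to 119.8. The 4 leukocyte markers Ptprc, Adgre1, Tyrobp and Cd3e were between 51.5 and 87.9 on every array, and endothelial Pecam1, Cdh5 and Tek between 49.1 and 94.7. Other genes of these lists were detected. Of 8 tested endothelial genes, Flt1 and Egfl7 were apart and lower, Flt1 with 185 to 249 on the set 2 arrays, against 323 to 448 on the set 1 arrays and Egfl7 with 165 to 192 on the set 2 arrays, against 294 to 349 on the set 1 arrays, while Kdr, at 159 to 204 on the set 2 arrays, against 177 to 239 on the set 1 arrays, and Emcn were not apart. Cd14, the only leukocyte gene tested, ranged from 262 to 339 on the set 2 arrays, against 381 to 562 on the set 1 arrays and was apart and lower. None of Flt1, Egfl7 and Cd14 was apart with the arrays centred. In these bulk samples fewer cells of a type and less RNA per cell cannot be told apart, and the part of a cell mixture in the set differences was not tested.

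Several housekeeping groups stayed near the median of all genes, whereas ribosomal protein and ribosome biogenesis genes lay above it. No gene was apart among 31 proteasome subunits and 11 myosin heavy chains, 1 of 47 splicing factors and 1 of 42 DNA replication genes was apart, and 2 of 38 mitosis genes, and all 4 of these were lower and none was apart with the arrays centred. Cytosolic ribosomal protein genes had a median of 0.12 in eluates and 0.21 in inputs over 67 genes, against -0.23 and -0.17 over all tested genes. Of the 67, 51 were positive in both fractions, against 1663 of all 9133, and only Rpl36 was apart. Ribosome biogenesis genes had medians of 0.15 and 0.26 over 38 genes, with 1 apart and higher (Polr1b). With the arrays centred, 7 ribosomal protein genes and 6 ribosome biogenesis genes were apart and higher, against 3.38% of all tested genes. None of either list was lower.

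Lysosomal genes were lower as a list, with 14 of 32 apart (5 with the arrays centred) and none higher, among them Glb1 (beta-galactosidase) at -1.15 in eluates and -1.19 in inputs, Lipa, the lysosomal acid lipase gene, at -1.51 in eluates and -1.13 in inputs, and Neu1 (sialidase). The other tested probesets of Glb1 were not apart, at -0.34 in eluates and -0.23 in inputs, and at -0.14 and -0.30. The lysosomal list also differed within set 1, where its medians were higher in eluate 1 and input 2 than in eluate 4 and input 1. Of 20 tested histone genes 9 were apart and lower, with 5 when centred. Histone genes have near-identical copies, so that H4c4, H4c8 and H4c9 may share signal. Sterol synthesis genes had 4 of 19 apart and lower (2 when centred), and fatty acid genes 4 of 28, among which Scd1 and Scd2, the stearoyl-CoA desaturases, had differences of -1.26 in eluates and -1.42 in inputs, and -1.06 in eluates and -1.02 in inputs. Of 31 glycolysis and hypoxia genes 6 were apart and lower, such as P4ha2 and Pfkfb3, and Vegfa was apart and higher.

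The set difference also varied along the genome. Median differences by chromosome, averaged over the fractions, ran from -0.33 on chromosome 8 over 510 genes and -0.31 on chromosome 19 over 358 genes to -0.06 on chromosome 15 over 386 genes and -0.04 on chromosome 18 over 228 genes. The share of genes apart and lower was 18.2% on chromosome 8, 17.9% on chromosome 4 and 5.88% on chromosome 12, against 11.5% of all tested genes. Chromosome 7 had the largest share apart and higher, 2.92%, against 1.40% of all. No test was made of these shares.

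The fractions were compared with the set as a block, which asks which transcripts differed between eluates and inputs whichever set they came from. In limma, 4180 of 14911 probesets passed an adjusted p of 0.15, 1966 higher in eluates (13.2%) and 2214 lower (14.8%). Without the set block 763 passed, and without eluate 2 the count was 2688. The block was itself chosen from these signals, which makes the residual spread small and the p-values with the block possibly too small. Among the 1506 probesets apart and lower in set 2, 258 were also higher in eluates (17.1%) and 165 lower (11%), and among the 212 higher in set 2, 26 were higher in eluates (12.3%) and 47 lower (22.2%). Both classes thus held members of either direction.

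Large actin-binding protein genes joined both contrasts. Of 33 tested, 29 were higher in eluates than in inputs by limma (14.5% of all tested genes were), and 25 without the set block (3.35% of all). The study reported actin-binding genes as enriched in these same eluates, and the list was made with earlier results known. The eluate counts are therefore no separate evidence. In set 2, 9 were apart and lower (11.5% of all tested genes were), and 4 with the arrays centred (5.74% of all). Non-muscle myosin IIB, Myh10, read 11604 and 9046 in set 2 eluates and 1122 and 908 in set 2 inputs, against 11552 and 14472 in set 1 eluates and 1418 and 1567 in set 1 inputs, an eluate minus input difference of 3.23 ± 0.12 (SE, adjusted p = 1.54e-21), while the sets overlapped in eluates on this probeset. On the other tested probeset of Myh10 the sets did not overlap in either fraction. The set difference there was -0.66 in eluates and -0.43 in inputs, and that probeset was not apart by at least 1.5-fold in both. Dbn1, the dendritic spine protein drebrin, read 3036 and 2585 in set 2 eluates and 279 and 223 in set 2 inputs, against 4911 and 6459.9 in set 1 eluates and 427 and 377 in set 1 inputs, with an eluate minus input difference of 3.65 ± 0.12 (SE, adjusted p = 1.23e-22), and was apart and lower in set 2 as deposited but not with the arrays centred. Synpo was higher in eluates by 0.81 ± 0.12 (SE, adjusted p = 4.34e-06) and Synm, an intermediate filament protein, by 1.55 ± 0.14 (SE, adjusted p = 7.09e-11), and both were apart and lower in set 2. Without the set block neither passed in limma, with adjusted p = 0.44 for Synpo and adjusted p = 0.26 for Synm, while Myh10 (adjusted p = 3.39e-05) and Dbn1 (adjusted p = 0.000195) did. The set difference of Synm was -2.22 in eluates and -1.34 in inputs.

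The set difference in eluates minus that in inputs, called the interaction here, was fitted as the product of set and fraction. Since the sets were chosen from the same signals so that arrays within them are alike, the residual spread of this fit is too small for its p-values to count as a test, and the values are given as a description. At limma's adjusted p of 0.15, 41 probesets were past the cutoff, 31 with a higher difference in eluates (0.208%) and 10 with a lower one (0.0671%). With 1 array left out the count was 20 to 62, with 20 without input 4, 22 without input 3, 24 without eluate 2 and 62 without eluate 4. The 41 comprised 25 probesets of 19 named genes and 16 probesets with no gene symbol. In 33 of them the set difference was at least 1.5-fold in eluates and under 1.5-fold in inputs, 28 of these higher and 5 lower in set 2 eluates, and in 27 it had opposite signs in the fractions. Without moderation of the variance by limma no probeset passed, and 370 had an unadjusted p under 0.05. Limch1 and Avil were the named genes among the 41 that were also apart in both fractions.

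Limch1 encodes a LIM and calponin homology domain protein that activates non-muscle myosin II. Its signals were 92.5 and 94.2 in set 2 eluates, against 1789 and 3825 in set 1 eluates. In the inputs they were 67.2 and 46.3 in set 2 inputs, against 292 and 274 in set 1 inputs. Limch1 was thus near the array medians on all 4 set 2 arrays and above them on all 4 set 1 arrays, so that its fitted interaction of -2.46 restates the difference between set 1 eluates and set 1 inputs, and does not show that the set difference varied with the fraction. The same holds for Avil in the other direction, which read 876 and 681 in set 2 eluates, against 91.2 and 114 in set 1 eluates, and 378 and 342 in set 2 inputs, against 103 and 90.2 in set 1 inputs, with the set 1 signals near the array medians and a fitted interaction of 1.02.

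The smooth and non-muscle myosin light chain kinase gene Mylk read 128 and 132 in set 2 eluates, against 321 and 379 in set 1 eluates, and 166 and 153 in set 2 inputs, against 131 and 159.7 in set 1 inputs. Its interaction was -1.56, and both of its other tested probesets were also past the cutoff. Raly, an hnRNP protein, read 919 and 700.5 in set 2 eluates, against 2312 and 3090.4 in set 1 eluates, and 752 and 742 in set 2 inputs, against 1027 and 679.7 in set 1 inputs, with an interaction of -1.57. In both genes the sets overlapped in inputs and did not overlap in eluates, where set 2 was lower.

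Ccdc86, a nucleolar protein, went the other way, at 1277 and 1199 in set 2 eluates, against 425 and 442 in set 1 eluates, and 484 and 445 in set 2 inputs, against 623 and 604 in set 1 inputs. Its interaction was 1.92, and that of its second probeset was 1.75. Senp7, a SUMO protease, read 725 and 861 in set 2 eluates, against 401 and 399 in set 1 eluates, and 207 and 183 in set 2 inputs, against 317 and 275 in set 1 inputs, with an interaction of 1.58. The chromatin reader gene Phf20 read 4318 and 3835 in set 2 eluates, against 2100.0 and 1665 in set 1 eluates, and 1028 and 1149 in set 2 inputs, against 1199.5 and 1449 in set 1 inputs, with an interaction of 1.40, and 2 other probesets of it were past the cutoff. In Ccdc86, Senp7 and Phf20 set 2 was above set 1 in eluates and below it in inputs.

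**Figure D5:**
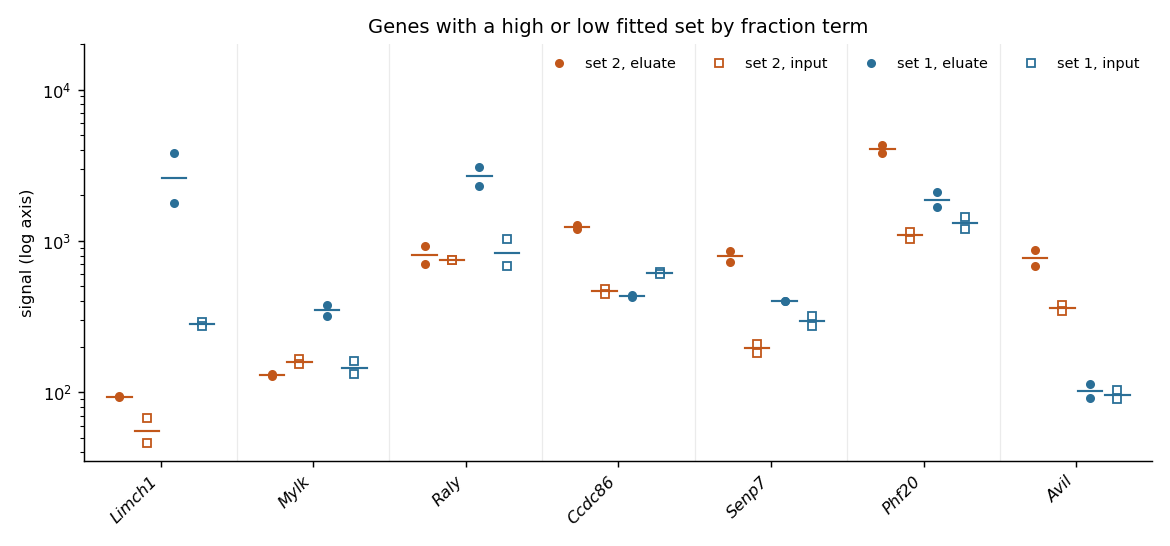
Signal (log axis) of each array for 7 genes with a high or low interaction, with filled circles for eluates, open squares for inputs and bars for the geometric mean of 2 arrays. Limch1, Mylk and Raly were lower in set 2 eluates and Ccdc86, Senp7, Phf20 and Avil higher, with smaller or opposite differences in the inputs.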

How the data were processed

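RNA (650 ng a sample) had been amplified, biotin-labelled and hybridised to Illumina Sentrix-6 mouse arrays. The deposited series table holds, per array, the log2 of the signal that the authors made with BeadStudio and Partek 6.4, both credited to the submitters' processing notes; no source used here gives a scaling between arrays, and array medians differ. 24 columns of values per sample in other tables match no label and were not used. Header names there place 6 arrays on 1 BeadChip and 2 on another, but do not give which array is which sample. How far the sets follow the chips was therefore not tested.

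Of 46643 probesets, 32794 have 1 gene symbol, 55 several (not used as names) and 13794 none; 32722 were updated by Entrez ID. The 14911 probesets with a mean log2 signal of at least that of 100 were tested (13143 to 17534 probesets an array reached 100). limma 3.58.1 in R 4.3.3 fitted set and fraction, and set, fraction and their product, with Benjamini-Hochberg adjustment over all 14911 and a cutoff of 0.15, the false discovery rate of the study. The fits were also run on simulated data with independent noise and the sets held fixed. That run did not repeat the choice of the sets, so it cannot show whether the p-values are too small. Other steps used Python 3.11.15, numpy 2.4.6, pandas 2.3.3 and matplotlib 3.10.9. The spread behind every p-value is that of these 8 arrays.

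The sets, the 36 gene lists and the naming rule were chosen with earlier results of these data known. Named are the 10 largest increases and decreases by the smaller fraction difference, up to 3 members of each list that were apart, the 5 smallest interaction p-values, Gapdh, Actb, Wt1, Myh10 and Dbn1; others, such as Atf4, Isg15, Cd74 and Phf20, were chosen after their values were seen. Alternatives were quantile normalization, centring, other filters, folds and cutoffs, unmoderated variances, the mean of a gene's probesets, replicate blocks and leaving out each array.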

Additional observations from a re-analysis of the deposited data

Results flagged for a closer look

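For 7 named genes the set difference in eluates minus that in inputs was past the cutoff in limma. The fitted log2 values were -2.46 for Limch1, -1.56 for Mylk, -1.57 for Raly, 1.92 for Ccdc86, 1.58 for Senp7, 1.40 for Phf20 and 1.02 for Avil. The sets were chosen from the same signals, which makes the p-values of this fit too small to count as a test, and without moderation of the variance 0 probesets passed (370 at an unadjusted p under 0.05). Limch1 in set 2 and Avil in set 1 were near the array medians, so their values only restate the difference between fractions in the other set.

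H2-K1, a classical MHC class I gene, had a signal of 1201 in input 2, against 690.1 to 754 in the other 3 inputs. That array stood further from the others than Dixon's critical value for 4 samples allows. It was the only one of 260 groups of 4 arrays checked. Each group pooled both sets, and 118 of the 130 named genes were apart between the sets. Such a split leaves little room for a single array to stand out. The usual 5% flagged by chance therefore does not apply, and the low count says little on the arrays.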

How the results depend on the processing

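The probesets apart numbered 485 at 2-fold or more, 4186 at the lower minimum of fold tried, and 1415 to 1969 when each array was left out, against 1718. Centring the arrays gave 1218, of which 928 were among the 1718, and turned the split from 12.3% to 41.2% higher in set 2; quantile normalization gave 1221 with 40.3% higher. With arrays centred, 17 of the 118 named genes that were apart no longer were: Rpa1, Melk, Birc5, H2-M3, H2-T22, H2-Q6, Hsph1, Lss, Osgin1, Wnt4, Egfl7, Flt1, Cd14, Myl4, Prpf31, Dbn1 and Fn1. Lists whose median difference, averaged over the fractions for each gene, was at least 1.5-fold numbered 10 (1 higher, 9 lower), 5 under quantile normalization, 5 under centring, and 7 to 11 with an array left out.

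Eluate minus input gave 4180 probesets, 2445 at an adjusted p of 0.05, 2324 without moderation, 763 without the set block, and 2688 to 4248 with an array left out, the lowest without eluate 2. The interaction gave 41, 0 without moderation (370 at an unadjusted p under 0.05), and 20 to 62 with an array left out: 22 without input 3, 20 without input 4, 24 without eluate 2 and 62 without eluate 4. Raly also failed under quantile normalization and the replicate block. Actb, not called between fractions at -0.02, took values of 0.049 under quantile normalization and -0.070 to 0.044 with an array left out.

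Same-numbered eluates and inputs correlated in their deviations at 0.48, -0.67, 0.74 and -0.77 for replicates 1 to 4. Numbers 1 and 3 share a set and 2 and 4 do not, so these signs follow the choice of the sets. They cannot decide whether the numbers pair the samples. The replicate block in place of the set gave 129 probesets between fractions, and beside the set 2753; it gave 22 interactions, and 2885 probesets by the size of the fitted set difference alone.

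Each set holds 2 arrays a fraction, signals near the array medians of 64.9 to 84.6 bound the low side of a fold, and what the sets stand for was not tested.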

Other observations

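The arrays of set 1 also differed among themselves, in the same way in both fractions, which was noticed after the values were seen. Eluate 1 and input 2 stood together, and eluate 4 and input 1 stood together. Over the 14911 tested probesets, the log2 difference of eluate 1 minus eluate 4 correlated at 0.562 with that of input 2 minus input 1. The like difference within set 2, eluate 2 minus eluate 3 against input 3 minus input 4, correlated at 0.048. In each set the order of the inputs was the one that gave the higher correlation, so the positive signs were fixed by that pick. In set 1, 96 probesets were at least 1.5-fold higher in both eluate 1 and input 2 and 35 were at least 1.5-fold higher in both eluate 4 and input 1 (0.879% in all), against 6 and 0 in set 2 (0.040%). Each difference rests on 1 array a side and carries no test.

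Fos, the AP-1 subunit made within minutes of a stimulus, had the largest such difference, with signals of 8686 in eluate 1 and 8459.8 in input 2, against 2884 in eluate 4 and 2100.2 in input 1. The set 2 arrays were between 2639 and 3112, close to the lower pair. Its relative Fosb read 578 in eluate 1 and 833 in input 2, against 228 in eluate 4 and 177 in input 1. In all, 5 of 28 tested immediate early genes were at least 1.5-fold higher in eluate 1 and input 2 and none was higher in the other pair, beside 69 and 22 of all 9133 genes. Gpnmb, a glycoprotein of lysosomes and melanosomes, read 3734 in eluate 1 and 4311 in input 2, against 1337 in eluate 4 and 1299 in input 1, and the glutathione transferase genes Gstm1, Gstm2 and Gstm6 were also higher in eluate 1 and input 2. Gstm1 read 4073 in eluate 1 and 3560.3 in input 2, against 1554 in eluate 4 and 1404 in input 1. Gstm genes are close paralogs and may share signal.

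Higher in eluate 4 and input 1 were Igf2, Igfbp2, Peg3, Col1a1 and histone H4 genes. H4c8 read 306 in eluate 1 and 288 in input 2, against 634 in eluate 4 and 604 in input 1, and Nrep, a regeneration-related protein gene, read 645 in eluate 1 and 852 in input 2, against 1429 in eluate 4 and 1498 in input 1. Histone H4 copies are near-identical and may share signal. Of 35 interferon response genes none differed by 1.5-fold in both fractions in either direction, and of 24 ATF4 and amino acid response genes 3 were higher in eluate 1 and input 2. Of 32 lysosomal genes, 4 were higher in eluate 1 and input 2 and none in the other pair. The lysosomal median was 0.34 for eluate 1 minus eluate 4 and 0.58 for input 2 minus input 1. Over all tested genes these medians were -0.13 and 0.13.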
